A study of Drosophila melanogaster with 4 samples.

Results

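Broad domains of cap'n collar (CNC) occupancy were described in whole Drosophila melanogaster embryos aged 16 to 24 h, late in embryogenesis. They were chosen by width alone, as the peaks of a CNC chromatin immunoprecipitation sequencing (ChIP-seq) experiment that spanned 2000 bp or more on 2L, 2R, 3L, 3R, 4 or X. There were 215 such domains among 4758 listed peaks, or 4.52% of the list, and 4752 of the listed peaks lay on these 6 arms. The remaining 4537 peaks on the arms, called narrower peaks below, were the comparison.

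The experiment comprised 2 libraries of CNC immunoprecipitate and 2 libraries of input DNA, the sheared chromatin before any immunoprecipitation. Both groups came from embryos of the strain Y cn bw sp, collected over 8 h of egg laying and fixed in 1.8% formaldehyde for 15 min. All libraries therefore shared the alleles bw[1], CG33964[R4.2], cn[1], Gr22b[1], Gr22d[1] and GstD5[1], as well as lab[R4.2], LysC[1], MstProx[1], oc[R3.2], Rh6[1], sp[1] and y[1]. Whether replicates of the same group were separate embryo collections is not stated in the labels. Whole embryos mix every tissue, so occupancy in few cells and weak occupancy in many cannot be told apart. The rabbit polyclonal antibody was raised against a stretch of CNC that includes the DNA-binding basic region, which the protein isoforms share, so the isoforms cannot be told apart either.

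CNC is a basic leucine zipper transcription factor, the fly counterpart of vertebrate Nrf2. It binds DNA together with a small Maf protein, and its long isoform, restrained by Keap1, activates detoxification and antioxidant genes. A shorter isoform acts in patterning of the embryonic head. A peak caller reports as a single interval any stretch over which enrichment stays above its threshold, so a wide interval can hold 1 strong site or several adjoining ones. The list gives no summits, and these possibilities cannot be told apart in it.

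The authors deposited 1 list for the whole series, with a start, an end and a score for each peak on FlyBase release 5. Coordinates below are on that release. The score is the authors' single value per peak, and the statistic behind it is not given in the sources used here. Read depth is unknown. No value per library was analysed here, so no spread between replicates exists and no test was made. Widths chose the domains, and scores and gaps come from the same peak call, so each value below is a description. The gene table at hand was for another release, so genes, exons, introns and promoters at the domains are not named, and no genome sequence was read.

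The domains ran from just over the width minimum to several times it, with most near the lower end. Their median width was 2863 bp, the middle 50% lay between 2364 and 3770 bp, and the widest spanned 11392 bp. Of the 215, 124 were under 3000 bp, 46 were from 3000 to under 4000 bp, 39 from 4000 to under 6000 bp, and 6 reached 6000 bp. Together they covered 691 kb, which was 23.1% of all bases under peaks on the arms. The width minimum cut through a continuous distribution. The 3 narrowest domains were 2004 bp (2L from 9569103, score 45.38), 2006 bp (3L from 22127603, score 110.01) and 2010 bp (3R from 21930352, score 36.54). The 3 widest peaks outside the minimum were 1987 bp (3R from 5261808, score 39.09), 1985 bp (3R from 4169085, score 42.98) and 1976 bp (X from 11657649, score 167.00). Scores on the 2 sides of the minimum thus overlapped.

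The score of every domain exceeded 12.5, the median over all listed peaks, as did 49.9% of the peaks on the arms. The lowest domain scored 16.44, the median domain 63.7 and the highest 318.19, while the narrower peaks had a median of 12.2 and a highest score of 205.79. A score of 100 or more was reached by 51 domains, or 23.7%, against 1.16% of all peaks. Score was higher at greater width inside the set, from a median of 53.4 below 3000 bp to 67.0, 93.3 and 158 in the successive wider classes. Inside the set the relation was loose, with Spearman's rho of 0.43 across the 215 domains and 0.15 among the 124 under 3000 bp. It was closer among the 4537 narrower peaks, with a rho of 0.70. Each of these sets is cut by width, which limits its range of widths. Width and score come from the same reads, so each rho is given as a description without a p.

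**Figure D1:**
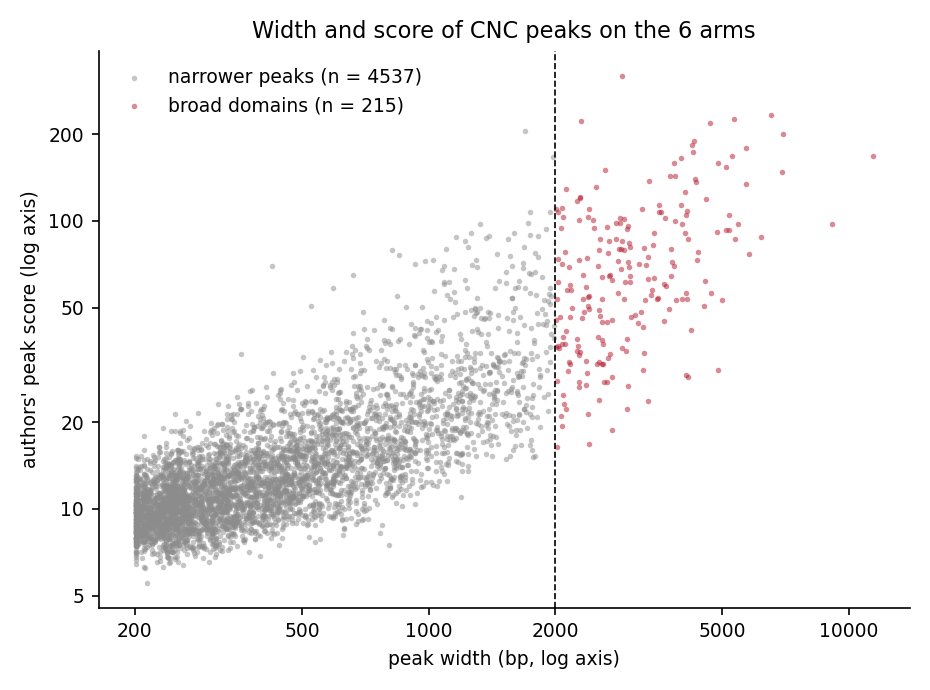
Each point is 1 of 4752 peaks, with width in bp on a log axis and the authors' score on a log axis. The dashed line marks 2000 bp, and the 215 domains to its right (red) span scores from 16.44 to 318.19 and overlap the narrower peaks (grey).

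Width and score did not pick the same intervals. Of the 215 domains, 141 were also among the 215 highest-scoring peaks (65.6% of each list), so 74 places by score went to narrower peaks. Only 3 of the 10 widest domains were among the 10 with the highest scores. These were 3R from 12899839 to 12906369 (6531 bp, score 232.21), 3R from 1614112 to 1621085 (6974 bp, score 200.32) and 2R from 3361885 to 3367559 (5675 bp, score 178.71).

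Compact domains with high scores stood at one end of this range. The highest score of the list belonged to a 2R domain of 2877 bp from 5578417 to 5581293, which ranked 106 by width. The X domain from 12628389 to 12630689 scored 221.61 with 2301 bp and ranked 167 by width. Among the domains alone, most of the 10 highest scores nevertheless belonged to wider intervals. Besides those named above, these scores were 224.97 on 2L from 9787912 (5332 bp), 218.91 on 3R from 19012893 (4668 bp), 189.74 on 2R from 9424941 (4271 bp), 182.73 on 2R from 9844577 (4224 bp) and 173.48 on 3R from 14739062 (4246 bp). In all, 13 domains under 2500 bp scored 100 or more. Narrower peaks reached the same level in 4 cases, namely 2R from 5875816 (1700 bp, score 205.79), X from 11657649 as above, 2R from 3519118 (1947 bp, score 107.16) and 3L from 22448816 (1745 bp, score 106.91). The fifth narrower peak by score, on 3R from 11830468, had 98.08 over 1727 bp.

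Wide domains with low scores stood at the other end. Of the 45 domains of 4000 bp or more, 4 scored under 50. They were picked out after their values were seen. The 2L domain from 2749853 to 2754737 spanned 4885 bp with a score of 30.43. Also on 2L, the interval from 478669 spanned 4099 bp with 29.16, and the interval from 13290133 spanned 4143 bp with 28.77. The last, on 3R from 10560309, spanned 4204 bp with 41.78. The lowest scores of the set were 16.44 (2L from 15909917), 16.75 (2L from 2374259), 18.82 (2L from 16792523), 19.44 (3L from 10673735) and 21.01 (2R from 9379463). These 5 domains were 2018 to 2737 bp wide, below the median width, and 3 of them lay on 2L.

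Smaller peaks lay close beside most domains. Another peak was found within 5 kb, measured from edge to edge, for 199 of the 215, or 92.6% (95% Clopper-Pearson interval 88.2 to 95.7%, for counting error only). Among all peaks on the arms the share was 82%, and among narrower peaks it was 81.5%. Within 1 kb the domains reached 79.5% (171 domains) against 64.1% of all peaks, and within 200 bp they reached 45.6% (98 domains) against 30.6% of all peaks. The median gap from a domain to its nearest neighbour was 220 bp, and from a narrower peak 482 bp. The smallest gap between any neighbours in the list was 44 bp. The difference between domains and other peaks was thus of like size at 200 bp and at 1 kb, and smaller at 5 kb.

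The share with a neighbour within 5 kb changed little below the width minimum and was higher above it. In classes that start at 0, 300, 500, 1000 and 1500 bp it was 81.8%, 81.8%, 80.5%, 81.8% and 82.8%. Above the minimum it was 90.3% under 3000 bp, 93.5% from 3000 to under 4000 bp and 97.4% from 4000 to under 6000 bp, and all 6 of the widest domains had a neighbour within 5 kb. The 95% Clopper-Pearson intervals next to the minimum overlapped. They were 75.6 to 88.5% from 1500 to under 2000 bp and 83.7 to 94.9% from 2000 to under 3000 bp. At shorter gaps the share was already higher in the wider classes below the minimum. In the same classes below the minimum the share with a neighbour within 1 kb was 59.9%, 63.8%, 66.3%, 67.5% and 69.0%, followed by 76.6% in domains under 3000 bp. Score made less difference inside the set. A neighbour within 5 kb was present for 91.9% of the 74 domains scoring under 50, 93.3% of the 90 from 50 to under 100 and 92.2% of the 51 at 100 or more. Within 1 kb these shares were 81.1%, 76.7% and 82.4%.

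The excess of neighbours was seen at gaps of up to 10 kb. Within 200 bp of its edges a domain had 1.41 other peaks per kb of flank, against 1.08 for peaks of 1000 to under 2000 bp, 0.976 for those of 500 to under 1000 bp and 0.738 for those under 500 bp. From 2 to 5 kb the 4 classes had 0.224, 0.194, 0.194 and 0.190 in the same order. From 10 to 20 kb they had 0.0953, 0.101, 0.0956 and 0.0976, and from 20 to 50 kb 0.0629, 0.0622, 0.0656 and 0.0666. The domains were highest in each distance class up to 10 kb and not beyond it. The narrower classes followed the order of width within 500 bp, and not in every class from there on.

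**Figure D2:**
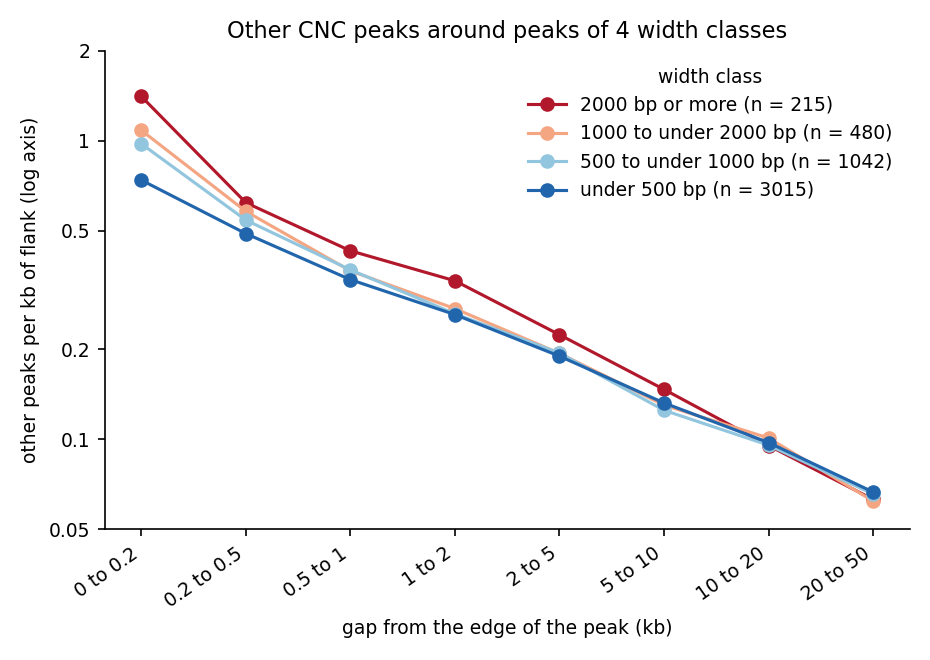
Other peaks per kb of flank (log axis) are plotted by their gap in kb from the edge of a peak, for 4 width classes. Domains of 2000 bp or more (red) start at 1.41 within 200 bp, and the 4 lines meet between 0.0953 and 0.101 from 10 to 20 kb.

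Neighbours lay on either side. Peaks within 1 kb flanked 72 domains on both sides, or 33.5% against 21.2% of all peaks. Another 49 domains had one only on the side of lower coordinates and 50 only on the side of higher coordinates. Flanking on both sides was already more frequent in the wider classes below the minimum. In classes that start at 0, 300, 500, 1000 and 1500 bp it was 15.8%, 20.4%, 25.3%, 26.9% and 29.7%, followed by 33.1% in domains under 3000 bp. Among the 10 widest domains, some were flanked within 1 kb on both sides and others on 1 side only. The widest, on 2L from 8688269 to 8699660, had 6 other peaks within 5 kb, the nearest 49 bp away, and none for 153 kb on the side of lower coordinates. The second, on 2R from 14286874 to 14295962, was flanked at 220 and 235 bp. The 3R domain from 1614112 was flanked at 182 and 46 bp, and no other peak of its group scored above 8.81. The 2L domain from 16525261 to 16532179 (6919 bp, score 147.44) had a neighbour 59 bp away, the 2R domain from 14689193 (6164 bp, score 87.78) 113 bp away, the 3R domain from 8253826 (5672 bp, score 134.08) 50 bp away and the 2L domain from 6338203 (5444 bp, score 97.73) 120 bp away. On their other side, the 2R domain from 14689193 had no peak for 7189 bp and the 3R domain from 8253826 none for 7171 bp. Among these 10, only the 2R domain from 8811005 to 8816778 (5774 bp, score 76.45) lacked a close neighbour on either side, its nearest peak being 4979 bp away.

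The narrower peaks beside domains resembled narrower peaks elsewhere, apart from the closest ones. The 106 narrower peaks within 200 bp of a domain had a median width of 404.5 bp and a median score of 13.8. For the 152 at 200 bp to 1 kb the medians were 371.5 bp and 12.4, and for the 363 at 1 to 5 kb they were 349 bp and 11.9. At 100 kb or more from any domain, 2516 narrower peaks of the large arms had medians of 368 bp and 12.3. Of the closest 106, 60.4% scored above the list median, against 48.0% of the distant ones. The middle 50% of scores, 10.3 to 19.0 in the closest and 9.93 to 16.8 in the most distant, overlapped broadly.

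A few domains stood apart from every other peak. There were 16 with no other peak within 5 kb, and 8 with none within 20 kb, or 3.72% of the set against 7.2% of all peaks. The 8 included the 2R domain from 5578417 with the highest score of the list, whose neighbours were 79.9 kb and 136 kb away. On 3L the domain from 22127603 (2006 bp, score 110.01) and on 3R the domain from 6500199 (3564 bp, score 107.14) were likewise isolated and strong. Next came 3L from 16602040 (4531 bp, score 61.79) and 2L from 13512936 (2938 bp, score 61.46), followed by 2L from 12718425 (3196 bp, score 48.34). The remaining 2 were weak, with 26.93 on 3R from 8806663 and 16.44 on 2L from 15909917. Isolation thus occurred over nearly the whole range of scores.

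Peaks were joined into groups where their edges were under 5 kb apart, which gave 962 groups of 2 or more peaks. A domain was present in 169 of them, or 17.6% (95% Clopper-Pearson interval 15.2 to 20.1%). Groups with a domain had a median of 5 peaks and spanned a median of 9.29 kb, whereas the 793 groups without one had a median of 3 peaks and spanned 3.32 kb. In a group with a domain the median share of covered bases that the domains supplied was 65.8%. Width chose the domains, so the longer span and this share follow at least in part from the width minimum. The share of groups with a domain went up with their size, from 6.77% of groups of 2 peaks to 17.3% at 3 or 4 peaks, 29.1% at 5 to 9 and 51.0% at 10 or more. A group of more peaks has more peaks that could be broad. This rise and the higher median number of peaks thus follow at least in part from counting, and how much was not tested. Counted by peak, domains were 37 of the 661 peaks in groups of 10 or more, against 215 of 4752 on the arms (4.52%).

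Domains usually carried the highest score of their group. Of the 199 domains in groups, 162 did so, or 81.4% (95% Clopper-Pearson interval 75.3 to 86.6%), against 24.7% of all peaks in groups. Since score goes with width, this share is a description of the list. Narrower peaks of 1500 to under 2000 bp led their group in 63.3% of cases and those under 300 bp in 8.97%. The leading domains had a median score of 72.5, and the second-highest peaks of their groups a median of 19.0. In 108 of the 162 groups the second peak scored under 25. The usual arrangement was therefore a domain with lower-scoring peaks beside it.

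**Figure D3:**
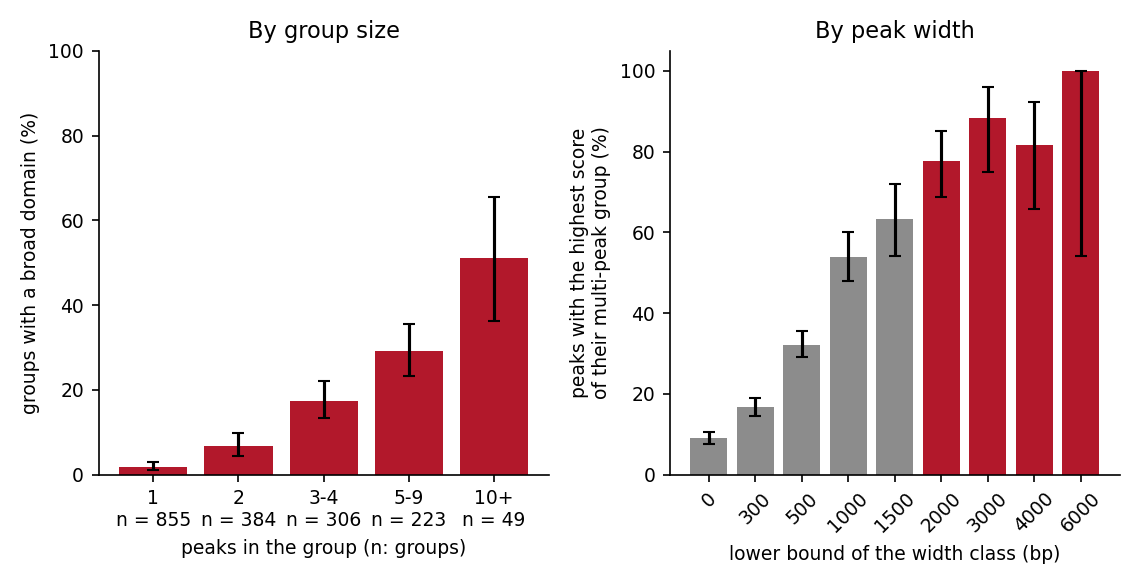
The left panel gives the percentage of groups that hold a domain by the number of peaks in the group, from 1.87% of single peaks to 51.0% of groups of 10 or more. The right panel gives the percentage of peaks with the highest score of their group by width class, with domains in red, and bars show 95% Clopper-Pearson intervals for counting error only.

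In the other 37 cases the highest score of the group belonged to another domain 29 times and to a narrower peak 8 times. Narrower peaks also scored above some of these 29. On 2R the domain from 7074629 scored 31.93, and a 1591-bp peak of its group from 7084083 scored 45.21. Where a narrower peak led the group, its margin over the domain ranged from small to large. On 2L the domain from 852677 to 854956 scored 27.49, and a 479-bp peak of its group from 858161 scored 27.52. On 3L the domain from 5127315 scored 24.79, beside a 653-bp peak from 5123624 with 30.57. On 2R the domain from 5470994 scored 79.66, beside a 1682-bp peak from 5464687 with 81.02. The widest margin was on 3R, where the domain from 3935629 scored 23.82 and a second from 3938353 scored 38.81, beside a 1920-bp peak from 3944030 with 52.51. These examples were chosen after their values were seen.

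Domains also occurred side by side. The median gap from a domain to the nearest other domain was 69.0 kb, and the middle 50% of these gaps ran from 7.55 to 316 kb. Another domain lay within 5 kb of 43 of the 215 domains, and a domain lay within 5 kb of 621 of the 4537 narrower peaks (13.7%). There were 32 domains with no other domain within 500 kb, and the share of narrower peaks was not computed at that gap. The 3 closest pairs were separated by 63 bp on X (from 8002342 and 8004810, scores 54.71 and 167.86), 88 bp on 3L (from 16149124 and 16152837, scores 44.79 and 72.20) and 98 bp on 3R (from 10560309 and 10564611, scores 41.78 and 50.68). The higher score belonged to the second domain in these pairs, and to the first in the next closest, 110 bp apart on 2L (from 2371593 and 2374259, scores 46.58 and 16.75). Merging peaks under 200 bp apart would join each of these 4 pairs into a single region.

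There were 27 groups with more than 1 domain, and 25 of them held 2. The largest number was 4, in a 2R group of 28 peaks from 7059913 to 7096946. Its domains started at 7059913 (3858 bp, score 142.91), 7070039 (4004 bp, score 97.27), 7074629 (2597 bp, score 31.93) and 7088821 (3797 bp, score 71.88). They supplied 47.2% of the covered bases of the group, and peaks covered 81.6% of its 37.0 kb. A 2R group of 10 peaks from 3413954 to 3427255 held 3 domains of 2103, 2392 and 2965 bp, with scores of 23.08, 54.29 and 94.01 in order of position. Here peaks covered 81.2% of 13.3 kb and domains supplied 69.1% of it.

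Long arrays differed in how much of them was broad. Groups of 10 or more peaks contained 37 domains, or 17.2% of the set against 13.9% of all peaks, and 25 of the 49 such groups held at least 1. The share was not particular to domains, since it was 17.9% for peaks of 1500 to under 2000 bp. Among domains it was 19.4% under 3000 bp, 19.6% from 3000 to under 4000 bp and 10.3% from 4000 to under 6000 bp. None of the 6 widest domains lay in such a group. The 3R array of 40 peaks from 12031119 to 12088837 held 2 domains of 2518 and 2405 bp, with scores of 31.81 and 49.59, and they supplied 20.2% of its covered bases. The 3R group of 17 peaks from 6205166 held 2 of 2885 and 3210 bp (scores 84.93 and 109.80), which supplied 46.9%. In the 2R group of 16 peaks from 3343319 the 2 domains, of 4571 and 5675 bp with scores of 119.36 and 178.71, supplied 65.0%. Domains in the 25 arrays scored from 22.21 on 2R from 10368152 to 178.71. Arrays without any domain included 17 peaks on 2L from 1624651 and 17 on X from 2530706, where the highest scores were 48.98 and 85.27.

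**Figure D4:**
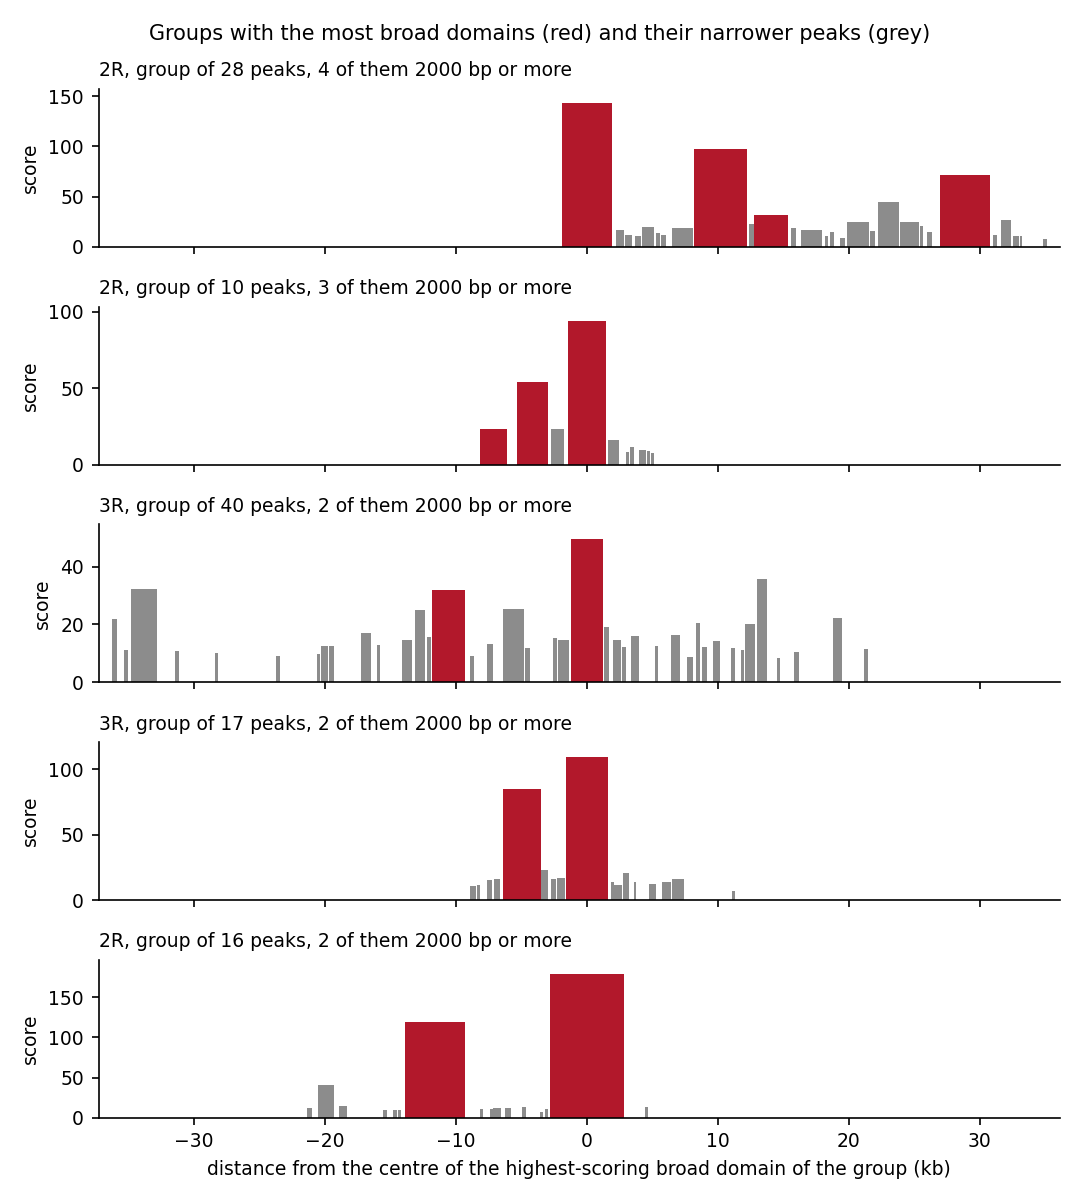
The 5 groups with the most domains, with ties at 2 domains settled by the number of peaks, are drawn to scale, with distance in kb from the centre of the highest-scoring domain and the authors' score as height. Domains (red) reach 142.91 in the 2R group of 28 peaks and 49.59 in the 3R array of 40 peaks, and the other peaks are grey.

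All 5 large arms carried domains. The arm 2R had 58, or 27.0% of the set against 21.7% of peaks, and 3R had 51, or 23.7% against 26.3% of peaks. On 2L there were 39 (18.1% against 16.9%), on 3L 36 (16.7% against 18.4%) and on X 31 (14.4% against 16.6%). Of the peaks of an arm, domains made up 5.62% on 2R (95% Clopper-Pearson interval 4.29 to 7.21%), 4.87% on 2L (3.48 to 6.60%), 4.12% on 3L (2.90 to 5.66%), 4.08% on 3R (3.06 to 5.33%) and 3.93% on X (2.68 to 5.53%). These intervals overlap, cover counting error only and take peaks as independent, which grouped peaks are not. Chromosome 4 had none among 7 peaks, which allows a share of up to 41.0%, and its widest peak was 1162 bp.

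Widths and scores of domains overlapped between arms. Median widths were 2963 bp on 3L, 2933 bp on 2R, 2885 bp on 2L, 2737 bp on X and 2615 bp on 3R. The middle 50% of each arm contained the median of every other. Median scores ran from 59.5 on 2L to 71.1 on X. The arms were less alike at the top. A score of 100 or more was reached by 10 of the 31 domains on X, 15 of 51 on 3R and 10 of 39 on 2L. On 2R it was reached by 12 of 58 and on 3L by 4 of 36. The highest score on 3L was 126.14, for a domain of 4077 bp from 1333294 to 1337370, while the highest on the other large arms ran from 221.61 to 318.19. The widest domain of 3L spanned 5343 bp (from 17000204, score 86.71) and the widest of X 5266 bp (from 8004810, score 167.86). Spacing differed too, with a median gap to the nearest domain of 316 kb on 3L and 124 kb on X, against 49.0 kb on 2R, 56.5 kb on 2L and 60.9 kb on 3R.

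**Figure D5:**
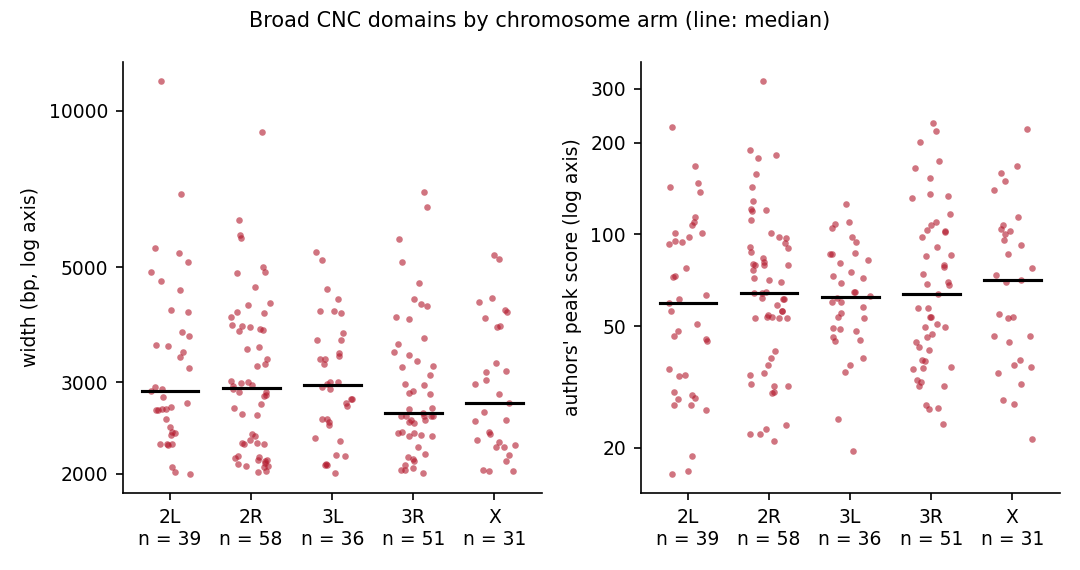
Each point is 1 of 215 domains, plotted by arm with width in bp (left, log axis) and the authors' score (right, log axis), and lines mark medians. Medians lie between 2615 and 2963 bp and between 59.5 and 71.1, and 3L lacks scores above 126.14.

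The domains were unevenly spread along the arms. The megabase of 2R from 3 to 4 Mb held 14, and they made up 14.1% of its 99 peaks. They lay in 8 groups between 3133898 and 3720459, covered 47.5 kb and scored from 23.08 to 178.71 with a median of 59.1. Next by number were 2R from 9 to 10 Mb with 7 domains among 44 peaks (15.9%, a higher share than from 3 to 4 Mb) and 2L from 0 to 1 Mb with 6 among 77 (7.79%). Without the fullest megabase, domains made up 4.72% of the peaks of 2R, against 4.22% over the other arms together. With that megabase the share on 2R was 5.62%, as above. The megabase was chosen after its values were seen.

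Long stretches had narrower peaks but no domain. The longest between neighbouring domains ran on X from 12797561 to 16169670, over 3.37 Mb with 112 narrower peaks. It was followed by X from 8469286 to 11017821 (2.55 Mb, 67 narrower peaks) and 3L from 17426180 to 19907004 (2.48 Mb, 96 narrower peaks). Of the 119 megabases of the arms, 34 held no domain, with 781 of the 4537 narrower peaks in them. Among the 34, 2R from 0 to 1 Mb had no peak at all, and the other 118 megabases of the arms each had peaks. Megabases rich in peaks could lack domains, as X from 13 to 14 Mb did with 52 peaks.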

How the data were processed

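ChIP-seq peaks of CNC were analysed from 2 immunoprecipitate and 2 input libraries. Per the submitters' processing notes, MACS2, BWA, the build BDGP5 and CASAVA (1.7.0.2 and 1.7.0.3) were used. The deposited peaks carry the source MACS and FlyBase release 5, per the file headers, and 1 score each. How the score is scaled, the threshold and any pooling of libraries are not given in the sources used. Depth is unknown, and no value per library was analysed here.

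Domains were peaks of 2000 bp or more (end minus start plus 1), unmerged. Gaps are bases between edges, and groups join peaks under 5 kb apart. Megabases count from coordinate 0 by peak midpoint. Intervals are exact Clopper-Pearson. No test was made. Alternatives changed the width minimum, the distance, the merging and the neighbours allowed. Procedures were tested on 20 simulated lists with known neighbours and groups and recovered them in 20. Python 3.11.15, numpy 2.4.6, scipy 1.17.1, pandas 2.3.3 and matplotlib 3.10.9 were used.

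The members, comparisons and naming rule were chosen with earlier results of these data known. Peaks were named by position: the 10 widest and 10 highest-scoring domains, the extremes of each arm, domains in groups of 10 or more peaks (with examples), the lowest-scoring, those next to the width minimum, the strongest narrower peaks, isolated domains, the groups with most domains, the closest pairs and the fullest and emptiest stretches.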

Additional observations from a re-analysis of the deposited data

How the results depend on the processing

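The number of domains was 215 at 2000 bp, 360 at 1500 bp and 91 at 3000 bp, and merging peaks under 200 bp apart before the minimum gave 306. The share with another peak nearby, 92.6% within 5 kb, was 79.5% within 1 kb, where fewer gaps count, and 74.9% when only the 50% of peaks with the highest scores counted as neighbours. The width minima, 10 kb and midpoints left it within its interval. At minima of 1500 and 3000 bp it was 88.6% and 95.6%, against 81.5% and 81.7% of narrower peaks. Within 1 kb the narrower peaks had 63.4%, and within 10 kb they had 87.5% against 95.3% of domains. No value for narrower peaks was computed with midpoints or with high-scoring neighbours only. Domains leading their group made up 81.4%, and 74.6% at a minimum of 1500 bp. Groups with a domain made up 17.6% of multi-peak groups, 26.8% and 8.32% at minima of 1500 and 3000 bp, and 14.6% when peaks were joined under 1 kb. Each of these changes admits or removes peaks by construction. All 20 alternative arm shares, 5 of them chosen after seeing the data, stayed within their counting intervals. No paired analysis was possible because all libraries share 1 list without values per library, which also prevented leaving replicates out. Depth is unknown, so domains missed or split at this depth cannot be counted.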

Other observations

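Merging peaks with edges under 200 bp apart joined 98 of the 215 domains to at least 1 other peak, and these regions took up 128 narrower peaks. The 306 merged regions of 2000 bp or more comprised 207 with a domain and 99 made only of narrower peaks. The median width of the regions with a domain was 3298 bp, against 2863 bp for the domains before merging, and the widest merged region spanned 11898 bp.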
